A study of Mus musculus with 58 samples.

Results

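Kupffer cells, the resident macrophages of the liver sinusoids, were compared between mice with advanced cholestatic injury plus acute colitis and mice with the same injury alone. The 8 libraries were chosen by their labels, 4 of CBDL+DSS and 4 of CBDL6w, among 20 Kupffer cell libraries and 58 libraries of the whole series. The series also holds monocyte-derived macrophages and monocytes, and control (Sham6w), early ligation (CBDL2w) and colitis-only (DSS) groups. All mice were of strain 129SV, with no sex or age in the labels. CBDL6w is ligation of the common bile duct at 6 weeks, labelled advanced cholestatic liver injury, Sham6w is the control at 6 weeks, DSS (dextran sulfate sodium, an agent that injures the gut lining) is acute colitis without ligation, and CBDL+DSS carries both. The labels give CBDL6w and Sham6w a week, and CBDL+DSS and DSS none. Whether CBDL+DSS and CBDL6w were taken equally long after surgery is not known, nor whether DSS and Sham6w match in time. The CBDL+DSS libraries carry the replicate numbers 1+3, 2, 4+5 and 6, and those of CBDL6w carry 1 to 4. The joined numbers 1+3 and 4+5 are read here as pools, since the study states that replicates were pooled in several cases. The study names this comparison as the effect of acute colitis as a second hit on advanced cholestatic injury.

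Kupffer cells line the vessels that carry portal blood from the gut and take up bacteria, damaged red cells and apoptotic cells through scavenger and complement receptors. In a bile duct ligation, bile cannot drain, the ducts proliferate and the liver scars, and part of the resident macrophages can be replaced by cells derived from blood monocytes. Colitis weakens the gut barrier and lets more microbial products reach the portal blood.

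The libraries labelled Kupffer cell held reads of all 24 genes of a Kupffer identity list in both groups. Clec4f, a lectin restricted to these cells, lay at 131 to 179 normalized counts in CBDL+DSS and at 50.2 to 179 in CBDL6w. Ly6c2, the surface marker of classical monocytes, lay at 0.697 to 1.55 and at 0 to 1.79. Each CBDL+DSS library (359823 to 512401 reads) was deeper than each CBDL6w library (228741 to 327143 reads). The share of reads from neutrophil markers was 0.0111% to 0.0144% in CBDL+DSS and 0.0052% to 0.0105% in CBDL6w, with 8 and 7 of 18 markers at 0, and that from T and NK cell markers was 0.000195% to 0.00119% and 0.00219% to 0.00395%, with 11 and 10 of 17 at 0. Neither overlapped between the groups. Shares of hepatocyte, endothelial, stellate, cholangiocyte, B cell, dendritic, platelet and erythroid markers did overlap. The part of depth and of these cells in the results below was not tested, except by thinning reads to the shallowest library, which is given where it ends the call of a named gene. The running codes in the titles of the groups lie in separate stretches, and the labels do not say whether they mark a plate or run, so an effect of such a batch and the effect of colitis cannot be told apart.

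Of 6159 genes tested, 58 (0.942%) were higher in CBDL+DSS and 49 (0.796%) were lower by limma, at a Benjamini-Hochberg adjusted p under 0.05 over all genes. Of the same 6159 genes 930 had an unadjusted p under 0.05 by limma. The edgeR fit called 54 higher and 52 lower, and DESeq2 called 105 and 134. Changes are log2 differences of normalized count plus 1, CBDL+DSS minus CBDL6w, with the standard error of the fit, and their median over all genes was 0.08. Each group has 4 libraries, and levels are normalized counts with the SD over those libraries. The 2 groups did not overlap in 53 of the 58 higher and 46 of the 49 lower genes, and did not overlap in 7.89% of all genes tested. Without CBDL+DSS replicate 6 the calls numbered 28, of which 27 were among the 107. Fkbp5, Dusp1, Tnfaip3, Csnk2a1, Vcam1 and Lilr4b lost their calls in that fit alone among the 8 that left out 1 library. Called in each of the 8 fits that left out 1 library were 13 higher genes, among them Vsig4, Mrc1, Fos, Hilpda, Il15ra, Lgmn, Atp6v1a, Rgs1 and Gadd45g, and 9 lower genes, among them Ccr2, Ptma, Anp32a, Anp32b, Lst1 and Pdap1. Other fits lost some of these calls. Il15ra, Lgmn and Lst1 did not pass in the fit of the 8 compared libraries alone. Il15ra, Gadd45g, Lst1 and Pdap1 did not pass with single replicate numbers only. With the replicate number as a block Anp32a alone passed. As these are bulk samples, fewer cells of a kind and less RNA per cell cannot be told apart. Apart from the replicate numbers nothing says that libraries came from separate animals, and the p-values then cover the spread of these libraries only, which may be technical.

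**Figure D1:**
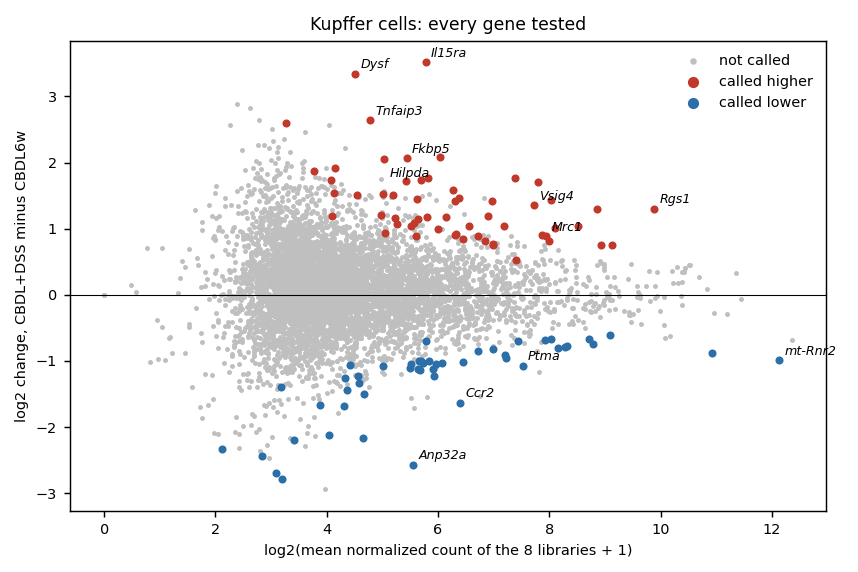
Each point is 1 of the 6159 genes tested in Kupffer cells: the x axis is log2 of the mean normalized count of the 8 libraries plus 1, and the y axis is the log2 change, CBDL+DSS minus CBDL6w. The 58 genes called higher are red and the 49 called lower are blue; Il15ra stands at 3.52 and Anp32a at -2.57.

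Some receptors by which Kupffer cells bind and engulf their targets were higher when colitis was added. Vsig4, a complement receptor of resident macrophages (ENSMUSG00000044206, chromosome X, 96247203 to 96293438), lay at 270, 319, 249 and 347 in the CBDL+DSS replicates 1+3, 2, 4+5 and 6, and at 174, 63.7, 162 and 92.8 in CBDL6w replicates 1 to 4. All CBDL+DSS libraries were above all CBDL6w libraries, and the change was 1.36 ± 0.23 (limma adjusted p = 0.0056). Mrc1, the mannose receptor (ENSMUSG00000026712, chromosome 2, 14229392 to 14332057), lay at 297, 324, 318 and 331 against 190, 164, 176 and 155. The lowest CBDL+DSS library was far above the highest CBDL6w library, and the change was 0.89 ± 0.14 (limma adjusted p = 0.0027). Mertk, the receptor tyrosine kinase through which macrophages take up apoptotic cells, lay at 159, 148, 187 and 144 against 87.2, 102, 106 and 78.9 (0.77 ± 0.17, limma adjusted p = 0.028). It kept its call in 3 of the 8 fits without 1 library.

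Within the Kupffer identity list 3 of 23 tested genes rose and none fell, with a median change of 0.57 against 0.08 for all genes. Without CBDL+DSS replicate 6, 1 of the 23 passed. Besides Vsig4 these were Cd5l, a secreted scavenger protein, at 697 ± 118 against 416 ± 87.4 with its call kept in 4 of the 8 fits without 1 library, and Cd163, the hemoglobin scavenger receptor. Cd163 lay at 155, 200, 110 and 230 against 155, 41.2, 76.8 and 29.9, so that CBDL6w replicate 1 overlapped the other group, and its call (1.42 ± 0.35, limma adjusted p = 0.042) was absent by edgeR and in 5 of the 8 fits without 1 library. Clec4f (0.65 ± 0.28) and Timd4 (0.17 ± 0.21), a receptor for phosphatidylserine, did not pass the test. Marco, a scavenger receptor for bacteria, did not pass either, at 89.9, 60.7, 108 and 69.8 against 30.4, 21.5, 51.8 and 16 (limma adjusted p = 0.081), although its groups did not overlap. The share of reads from the whole list was 0.871% to 1.09% in CBDL+DSS, 0.472% to 0.870% in CBDL6w and 1.27% to 1.40% in Sham6w. The lowest CBDL+DSS library was thus just above the highest CBDL6w library, and both groups lay below the controls.

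Of 17 efferocytosis and scavenger receptor genes 3 rose (Mrc1, Mertk and Cd163) and none fell, with a median of 0.47. Without CBDL+DSS replicate 6, 1 of the 17 passed. Among 33 lysosomal genes 2 rose. Lgmn, an asparagine-specific protease of the lysosome, lay at 293, 355, 386 and 425 against 190, 157, 251 and 138 (1.01 ± 0.18, limma adjusted p = 0.0075). Atp6v1a, the catalytic subunit of the proton pump that acidifies lysosomes, lay at 102 ± 19.4 against 53.6 ± 6.32. Of 15 complement genes 2 rose, Vsig4 and the alternative pathway component Cfb (1.14 ± 0.27), whose call was absent after reads were thinned to the depth of the shallowest library (adjusted p = 0.13). C1qa, a subunit of the first component of the classical pathway, was not called (-0.21 ± 0.15).

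Of 17 genes of the LXR and cholesterol list 2 rose, Cd5l and the apolipoprotein gene Apoc1 (1.18 ± 0.30), and CBDL6w replicate 1 at 81.9 overlapped the CBDL+DSS range of 78 to 112 in Apoc1. Apoc1 was not called by edgeR (adjusted p = 0.07) and kept its call in 1 of the 8 fits without 1 library, and without CBDL+DSS replicate 6 none of the 17 passed. Apoe, the apolipoprotein made in bulk by these cells, lay at 2743 ± 347 against 2843 ± 163 and was not called. Pla2g7, which cleaves platelet-activating factor and oxidized phospholipids, lay at 162, 181, 124 and 192 against 87.2, 58.3, 54.7 and 88.5 (1.19 ± 0.26, limma adjusted p = 0.024), with its call kept in 4 of the 8 fits. None of 18 genes of the lipid- and scar-associated macrophage list passed by limma, edgeR called 0 and DESeq2 called 1. Of these 18 genes 3 had an unadjusted p under 0.05, against 930 of all 6159 genes tested. Spp1, Gpnmb and Trem2, members of that list, lay at 10.6 ± 5.06, 7.79 ± 4.07 and 16.2 ± 8.46 in CBDL+DSS and at 7.05 ± 5.41, 4.32 ± 4.05 and 27.1 ± 7.7 in CBDL6w.

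**Figure D2:**
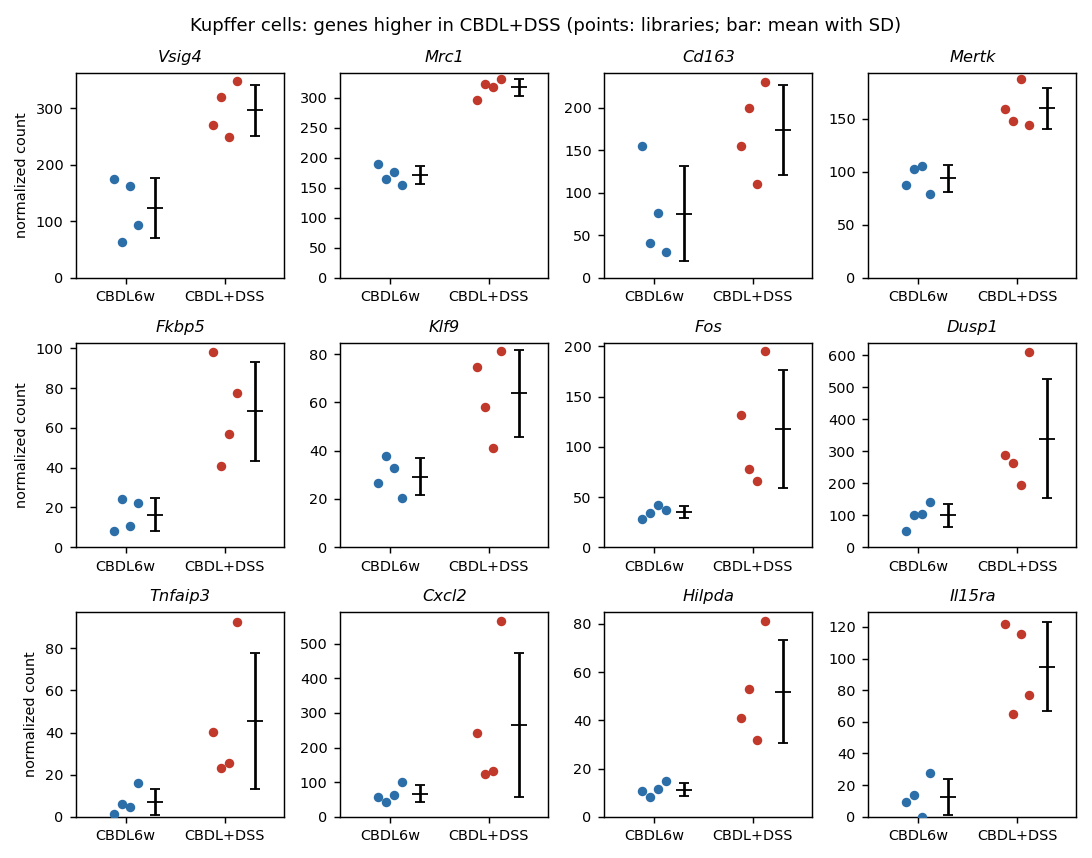
Normalized counts of 12 genes called higher in Kupffer cells of CBDL+DSS: points are the 4 libraries of each group in replicate order and the bar to their right is the mean with SD. The groups overlap only in Cd163. Replicate 6, the rightmost red point, is the highest in all genes shown but Mertk, Fkbp5 and Il15ra.

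Some genes known to be switched on by the glucocorticoid receptor were higher. Of 18 tested 5 rose and none fell, with a median of 0.60. Fkbp5, a co-chaperone that restrains this receptor (ENSMUSG00000024222, chromosome 17, 28399094 to 28517527), lay at 98.2, 40.7, 56.7 and 77.6 against 7.93, 24.2, 10.6 and 22.4. The groups did not overlap, and the change was 2.07 ± 0.42 (limma adjusted p = 0.012). Klf9, a transcription factor induced by the hormone, lay at 74.6, 58.2, 41.2 and 81.2 against 26.4, 37.7, 32.6 and 20.3 (1.09 ± 0.28, limma adjusted p = 0.047). It kept its call in 1 of the 8 fits without 1 library and lost it after thinning (adjusted p = 0.062). Ddit4, an inhibitor of mTORC1 signalling that hypoxia and glucocorticoids both induce, lay at 60.6, 46.5, 33.4 and 68.6 against 18.5, 32.3, 16.3 and 8.53 (1.51 ± 0.35), with its call kept in 4 of the 8 fits. The other called members were Dusp1 and Cd163. Tsc22d3, another gene of this list, lay at 48.3 ± 7.94 against 35.3 ± 8.74 and was not called. Replicate 6 had the highest value of the 4 CBDL+DSS libraries in 12 of the 18 genes (66.7%), against 25.6% of all genes tested, and without it no member passed, while 15 of 18 changes stayed above 0 with a median of 0.49.

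Immediate early genes, which cells transcribe within minutes of a stimulus and also while tissue is taken apart, had mostly positive changes and their highest values in 1 library. Of 31 tested 7 rose and none fell, 30 changes were above 0, and the median was 0.86. Fos, a subunit of the AP-1 factor (ENSMUSG00000021250, chromosome 12, 85473890 to 85477273), lay at 132, 78.1, 66 and 195 against 27.8, 34.1, 42.2 and 37.3 (1.59 ± 0.28, limma adjusted p = 0.0062). Dusp1, a phosphatase that shuts off MAP kinases, lay at 290, 265, 193 and 612 against 51.5, 102, 105 and 141 (1.71 ± 0.34, limma adjusted p = 0.012). Fosb, a partner gene of Fos, lay at 136, 31.6, 45.8 and 229 against 21.1, 10.8, 23 and 22.4. The groups did not overlap in these genes, and replicate 6 was the highest library in each. Fosb kept its call in 1 of the 8 fits without 1 library. Ppp1r15a, which directs the dephosphorylation of the initiation factor eIF2alpha, lay at 66.9, 39.9, 62.9 and 118 against 26.4, 21.5, 32.6 and 17.1. The other called members were Cxcl2, the small GTPase Rhob (0.99 ± 0.23) and the transcription factor Klf2 (0.92 ± 0.23). Ppp1r15a, Rhob and Klf2 kept their calls in 3, 4 and 2 of the 8 fits without 1 library. After thinning Ppp1r15a (adjusted p = 0.082) and Rhob (0.059) did not pass, and 5 of the 31 genes did. Replicate 6 held the highest value of the 4 CBDL+DSS libraries in 30 of the 31 genes (96.8%). Without it, only Fos passed, 30 of 31 changes were still above 0 and the median was 0.60, against 0.09 for all genes.

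Feedback genes of NF-kB signalling and chemokine genes gave 3 calls, in which replicate 6 was again the highest library. Of 19 genes of the NF-kB feedback list 16 had changes above 0, with a median of 0.53 against 0.08 for all genes, and 1 was called higher. This was Tnfaip3, a ubiquitin-editing enzyme that dampens the pathway, at 40.4, 23.3, 25.6 and 92.5 against 1.32, 6.28, 4.8 and 16 (2.64 ± 0.52, limma adjusted p = 0.012). It lost its call without replicate 6, and the median of the list was then 0.40. Nfkbia, the inhibitor that holds NF-kB in the cytoplasm, lay at 374, 286, 338 and 677 against 308, 238, 241 and 315 and was not called. Of 14 chemokine genes 2 rose, 10 changes were above 0 and the median was 0.70. Cxcl2, which attracts neutrophils, lay at 242, 122, 132 and 565 against 58.2, 42.1, 63.3 and 100 (1.77 ± 0.45, limma adjusted p = 0.046), with its call kept in 2 of the 8 fits without 1 library. Ccl6 lay at 415, 499, 401 and 642 against 255, 199, 274 and 215 (1.03 ± 0.21). Without replicate 6 none of the 14 passed, and their median was 0.61. The share of neutrophil marker reads was also higher in CBDL+DSS, as given above. Of the 2 neutrophil markers tested, Csf3r had a change of -1.13 ± 0.72 (not called) and S100a8 lay at 18.8, 16.6, 21 and 26.9 against 13.2, 1.79, 5.76 and 7.47 (not called), and their part in the result was not tested. None of 7 cytokine genes passed by limma, edgeR or DESeq2, and 1 passed by limma after thinning. Of these 7 genes 3 had an unadjusted p under 0.05, against 930 of all 6159 genes tested. Changes were above 0 in 6 of the 7, with a median of 0.93 against 0.08 for all genes. Without replicate 6 the median was 0.65 over the 6 then tested. Il1b lay at 138 ± 64.4 against 99.3 ± 37.8, Tnf at 5.82 ± 4.6 against 2.26 ± 2.23, and Il10 at 1.14 ± 1.38 against 0.224 ± 0.448.

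The stretches before the starts of 4 of these genes are shown because these are called immediate early, chemokine or feedback genes whose start regions hold letters of motifs known for the factors CREB and NF-kB. Each is the 250 bases before the RefSeq start on GRCm38.p6, read 5′ to 3′ on the strand of the gene. Capitals mark matches to the cyclic AMP response element TGACGTCA in Dusp1 and Ppp1r15a, and to the NF-kB motif in Cxcl2 and Tnfaip3, where the Cxcl2 matches overlap.
Dusp1, chr17:26508473-26508722, minus strand: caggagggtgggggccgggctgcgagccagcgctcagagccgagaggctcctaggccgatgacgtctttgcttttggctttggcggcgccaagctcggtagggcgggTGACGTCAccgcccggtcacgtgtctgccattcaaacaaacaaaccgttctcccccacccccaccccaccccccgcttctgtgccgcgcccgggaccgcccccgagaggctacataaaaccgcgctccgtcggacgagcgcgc
Ppp1r15a, chr7:45526269-45526518, minus strand: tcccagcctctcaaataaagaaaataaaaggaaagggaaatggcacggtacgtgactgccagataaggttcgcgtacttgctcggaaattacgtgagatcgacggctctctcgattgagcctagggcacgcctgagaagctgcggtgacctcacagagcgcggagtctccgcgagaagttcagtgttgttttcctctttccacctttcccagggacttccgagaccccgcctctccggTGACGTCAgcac
Cxcl2, chr5:90903649-90903898, plus strand: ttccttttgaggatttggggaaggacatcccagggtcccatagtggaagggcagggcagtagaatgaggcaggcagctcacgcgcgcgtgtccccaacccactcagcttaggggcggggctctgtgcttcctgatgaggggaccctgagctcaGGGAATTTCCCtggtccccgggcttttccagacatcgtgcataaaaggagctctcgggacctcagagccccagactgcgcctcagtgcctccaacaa
Tnfaip3, chr10:19015411-19015660, minus strand: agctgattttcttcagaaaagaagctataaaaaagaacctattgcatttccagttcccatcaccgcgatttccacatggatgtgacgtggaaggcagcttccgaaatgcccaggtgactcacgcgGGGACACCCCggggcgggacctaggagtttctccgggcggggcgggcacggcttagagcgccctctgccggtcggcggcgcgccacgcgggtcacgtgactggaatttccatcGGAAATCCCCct

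The response element begins 143 bases before the start in Dusp1 and 12 bases before it in Ppp1r15a. On either strand it was found in 2 of the 48 promoters matched for the 58 higher genes (4.17%) and in 1.62% of all 27025 promoters of the table. The NF-kB motif was found in 6 of the 48 (12.5%) and in 7.01% of all. The hypoxia core (ACGTG or GCGTG, which overlaps the E-box CACGTG) was found in 23 of the 48 (47.9%) and in 38.6% of all, and the E-box in 8 (16.7%) and 6.05%. AP-1 letters (TGANTCA) were found in 3 (6.25%) and 6.87%, and the glucocorticoid half-site AGAACA in 3 (6.25%) and 16.2%. These are counts of letters in these windows. For the lower genes 28 of 49 had a promoter in the table, and for the tested genes 4420 of 6159. Both are under 80%, so the shares there cover only part of the genes, and those of the lower genes are not used. Among the 4420 tested genes with a promoter the hypoxia core was found in 58.5%, the E-box in 9.16% and the NF-kB motif in 8.89%. The response element was found in 2.83%, AP-1 letters in 4.34% and the glucocorticoid half-site in 10.8%. The hypoxia core share of the higher genes thus lay above that of the whole table and below that of the tested genes. For AP-1 letters it was the other way round. None of these differences was tested.

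Other genes with large rises do not sit in those groups. Il15ra, the receptor chain that presents interleukin 15 to lymphocytes (ENSMUSG00000023206, chromosome 2, 11705290 to 11734317), lay at 122, 64.8, 116 and 77 against 9.25, 13.4, 0 and 27.7. It had the largest change of the called genes by limma (3.52 ± 0.61, limma adjusted p = 0.0062). By edgeR its change was 2.88, and with a pseudocount of 5 it was 2.75. It was the only called gene of 26 in the cytokine receptor list, whose median was -0.06 and 0.07 without CBDL+DSS replicate 6. Dysf, a protein of membrane repair, lay at 46.7, 32.4, 38.1 and 36.4 against 14.5, 0, 5.76 and 1.07 (3.35 ± 0.74), and kept its call in 3 of the 8 fits without 1 library. By edgeR the change of Dysf was 2.93, and with a pseudocount of 5 it was 2.27. Hilpda, which binds lipid droplets and blocks their lipolysis and is known as a hypoxia target (ENSMUSG00000043421, chromosome 6, 29272488 to 29275446), lay at 41.1, 53.2, 31.9 and 81.2 against 10.6, 8.07, 11.5 and 14.9 (2.05 ± 0.37, limma adjusted p = 0.0072). With Ddit4 it made 2 of 15 hypoxia genes that rose, and the median of that list was 0.08, the same as for all genes. Without replicate 6, 1 of the 15 passed. Hbegf, a ligand of the EGF receptor, lay at 26.5 ± 9.33 against 7.09 ± 4.38 (1.91 ± 0.45). Rgs1, which ends signals of G protein coupled chemokine receptors, lay at 1097, 1207, 934 and 2190 against 523, 349, 564 and 705 (limma adjusted p = 0.0075). Vcam1, an adhesion molecule, lay at 116, 122, 85.5 and 152 against 25.1, 69, 35.5 and 49.1 (1.46 ± 0.28). The receptor genes Lilr4b (1.43 ± 0.28) and Lilrb4a (0.76 ± 0.19) were also called higher. Lilrb4a was not called by edgeR and kept its call in 2 of the 8 fits without 1 library. They are near-identical copies, so reads may be split between them and each value is uncertain.

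**Figure D3:**
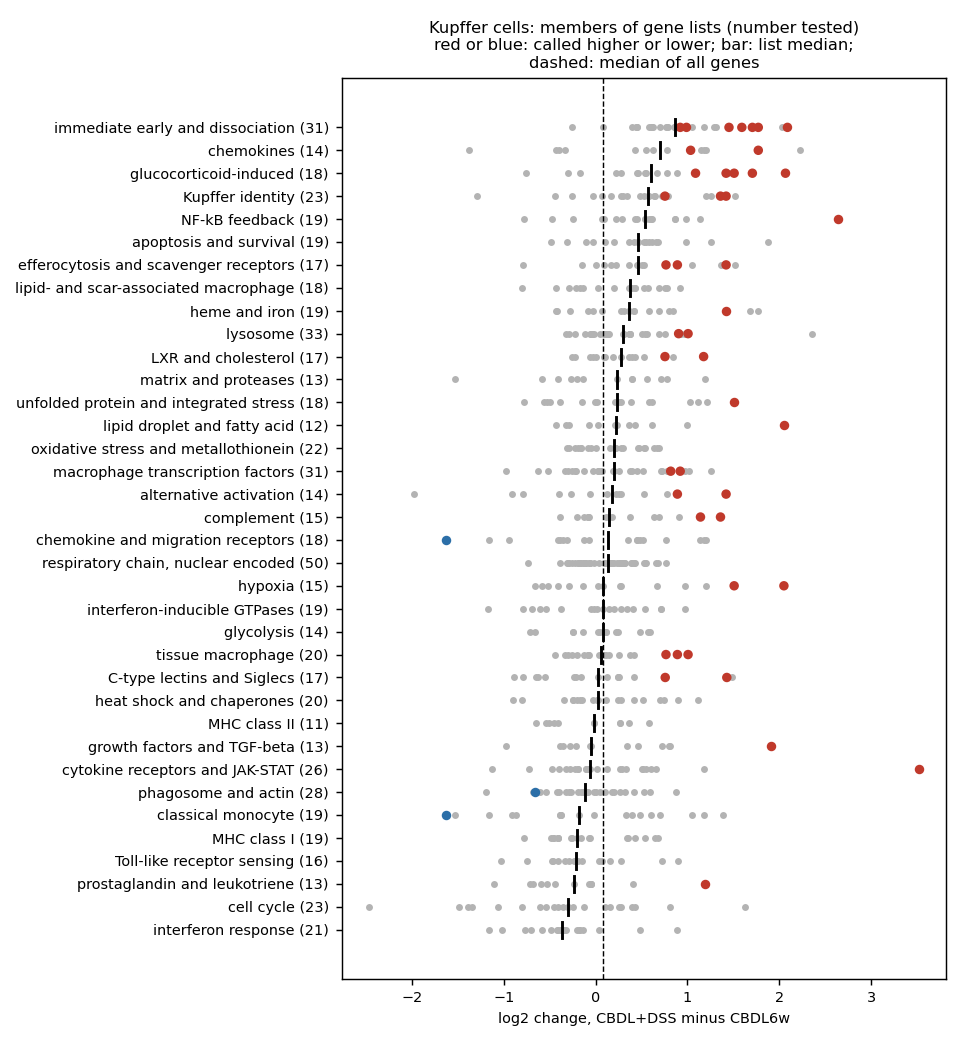
Each row is a gene list, among lists with at least 10 members tested, and each point is a member's log2 change, CBDL+DSS minus CBDL6w; red and blue points were called higher and lower, the bar is the list's median and the dashed line the median of all genes (0.08). Of the lists drawn the immediate early list has the highest median (0.86) and the interferon response list the lowest (-0.37, or -0.21 without CBDL+DSS replicate 6).

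Among the genes that fell was Ccr2, the receptor that brings blood monocytes toward Ccl2 (ENSMUSG00000049103, chromosome 9, 124101950 to 124113557). It lay at 38.3, 45.7, 38.1 and 32.8 in CBDL+DSS and at 102, 176, 76.8 and 158 in CBDL6w. The groups did not overlap (-1.63 ± 0.26, limma adjusted p = 0.0027). It was the only called gene of 19 in the classical monocyte list, whose median was -0.18 and -0.11 without CBDL+DSS replicate 6. Cx3cr1, the fractalkine receptor of monocytes and monocyte-derived cells, lay at 141, 133, 133 and 140 against 251, 427, 280 and 297. It missed the threshold in limma (-1.16 ± 0.33, adjusted p = 0.076) and passed in edgeR (adjusted p = 0.034) and DESeq2 (adjusted p = 0.0025). The summed share of the classical monocyte list overlapped, at 0.567% to 0.643% in CBDL+DSS and 0.560% to 0.793% in CBDL6w.

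Of the genes named here other than the Mup genes, Anp32a had the largest fall. Anp32a, an acidic nuclear phosphoprotein that binds histones (ENSMUSG00000032249, chromosome 9, 62341293 to 62378812), lay at 20.9, 4.99, 10.9 and 16.1 against 96.5, 80.7, 94.1 and 42.7 (-2.57 ± 0.37, limma adjusted p = 0.0027). Its relative Anp32b lay at 32.7, 32.4, 37.3 and 46 against 83.3, 80.7, 63.3 and 72.5 (limma adjusted p = 0.012). Ptma, prothymosin alpha, a small acidic nuclear protein, lay at 137, 106, 105 and 122 against 254, 290, 224 and 225 (-1.07 ± 0.17, limma adjusted p = 0.0027). The groups were separate in all 3. Ncl, the nucleolar protein nucleolin (-0.91 ± 0.20), Csnk2a1, a catalytic subunit of casein kinase 2 (-1.13 ± 0.23), the chromatin reader Brd1 (-1.34 ± 0.30) and Pnn, a protein of RNA splicing (-1.26 ± 0.29), also fell. Brd1 and Pnn kept their calls in 6 and 4 of the 8 fits without 1 library. Pdap1 lay at 34.1, 49.9, 30.3 and 28.1 against 87.2, 84.3, 67.2 and 96 (-1.23 ± 0.23).

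The initiation factor subunit Eif3c (-1.04 ± 0.24) and the poly(A)-binding protein Pabpc1 (-0.60 ± 0.15) fell, with calls kept in 3 and 2 of the 8 fits without 1 library. Of the 49 lower calls 13 were pseudogenes, among them Anp32b-ps1, and of the 58 higher calls 0 were. The share of pseudogenes among all genes tested is not given here, so these counts are not read further. Reads of a pseudogene can come from the parent gene, so the 13 calls and those of the parents are not independent and the split between them is uncertain. Anp32b-ps1 was not called after thinning (adjusted p = 0.16). The same holds for Tpm3 (-0.66 ± 0.17), called in 1 of the 8 fits and not after scaling to equal totals (0.053), and its copy Tpm3-rs7, which thinning left uncalled (0.13). The mitochondrial ribosomal RNA mt-Rnr2 lay at 3575, 3785, 2167 and 2446 against 8823, 4986, 5929 and 4251 (-0.99 ± 0.22), the only call among 15 genes of the mitochondrial genome, whose median was 0.27, and not called without CBDL+DSS replicate 6. The nuclear noncoding RNA Malat1 lay at 1648, 1388, 1094 and 1246 against 2860, 1842, 3323 and 2025 (-0.88 ± 0.21), with its call kept in 3 of the 8 fits.

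Most interferon-stimulated genes had changes below 0, and none passed. None of the 21 passed by limma, edgeR called 0 and DESeq2 called 2 lower. An unadjusted p under 0.05 was found for 2 of the 21, against 930 of all 6159 genes tested. Changes were below 0 in 18 of the 21, with a median of -0.37. Without CBDL+DSS replicate 6, 5 of the 21 were above 0 and the median was -0.21. Ifi203 and Mndal, interferon-inducible DNA-sensing family genes that are not in the list, did fall (-0.80 ± 0.19 and -0.79 ± 0.20), with each call kept in 2 of the 8 fits without 1 library. They are related in sequence, so shared reads are possible. H2-M2, a nonclassical MHC class I gene, lay at 6.97, 8.31, 5.44 and 9.55 against 48.9, 50.2, 15.4 and 48 (-2.17 ± 0.52), and kept its call in 1 of the 8 fits without 1 library. Lst1, a leukocyte gene of the MHC region, lay at 26.5, 36.6, 39.6 and 33.4 against 64.8, 69, 87.3 and 61.9 (-1.04 ± 0.20). H2-Ab1, an MHC class II chain, lay at 593 ± 106 against 814 ± 267 and was not called. The hepatocyte genes Mup2, Mup13 and Mup18 were called lower, from 0 to 3.89 counts in CBDL+DSS and from 1.07 to 29.1 in CBDL6w. After thinning Mup2 (adjusted p = 0.054) and Mup13 (0.065) did not pass, and edgeR called none of the 3. They are near-identical copies. The hepatocyte marker list, which does not hold these 3 genes, had 8 of 12 tested changes above 0 with a median of 0.60, and its share lay at 0.0832% to 0.115% in CBDL+DSS and at 0.0452% to 0.131% in CBDL6w.

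The remaining lists held few calls or none. None of 23 cell cycle genes passed by limma, edgeR or DESeq2, 7 had an unadjusted p under 0.05, and the median was -0.30. Over all 6159 genes tested 930 had an unadjusted p under 0.05, and DESeq2 called 105 higher and 134 lower. Of 31 genes of macrophage transcription factors 2 rose, Klf2 and Id2 (0.82 ± 0.17), an inhibitor of helix-loop-helix factors, and of 19 heme and iron genes 1 rose, Cd163, and without CBDL+DSS replicate 6 none of either list passed. Replicate 6 also held the outlying value of Klf2. None of 11 MHC class II, 19 MHC class I and 16 Toll-like receptor genes passed by limma, with 2, 3 and 2 at an unadjusted p under 0.05, edgeR called 0 in each, and DESeq2 called 2, 1 and 0, all lower. None of 50 nuclear genes of the respiratory chain passed by limma, 4 had an unadjusted p under 0.05, edgeR called 0 and DESeq2 called 1 lower, and their median was 0.13.

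**Figure D4:**
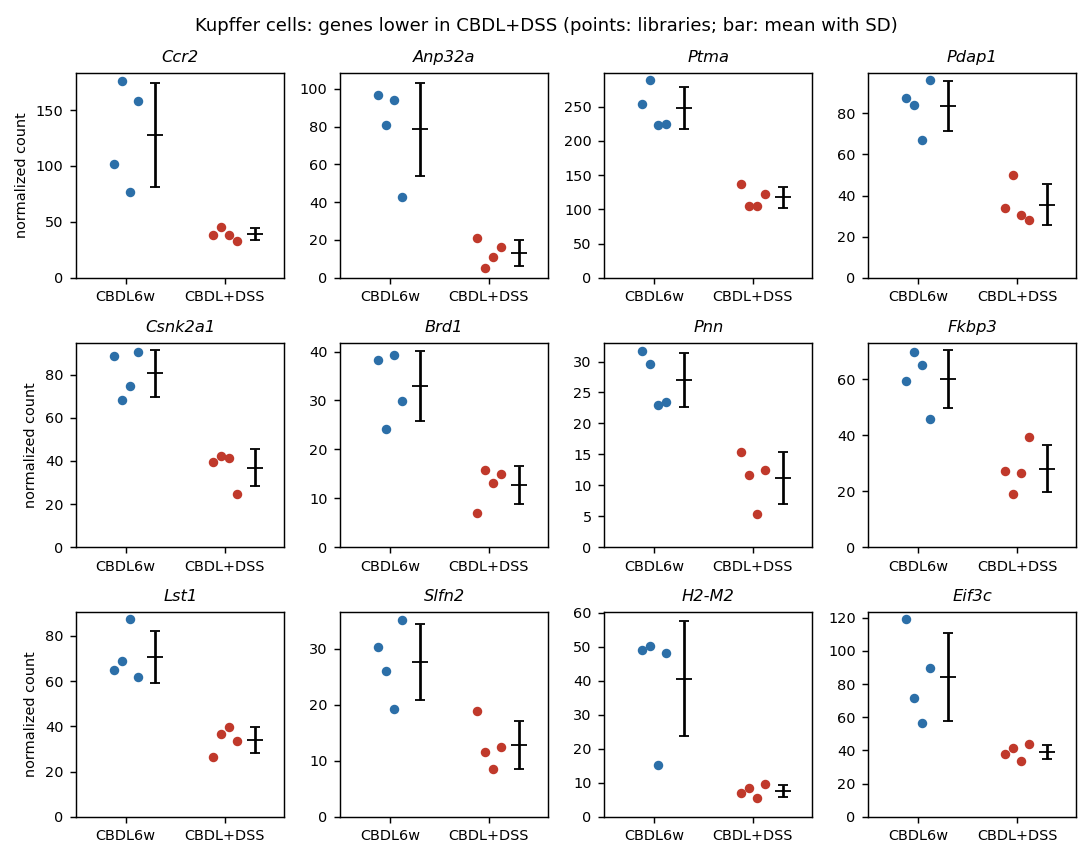
Normalized counts of 12 genes called lower in Kupffer cells of CBDL+DSS: points are the 4 libraries of each group in replicate order and the bar to their right is the mean with SD. The genes were chosen among those without overlap between the groups. Ccr2 lies at 32.8 to 45.7 in CBDL+DSS and at 76.8 to 176 in CBDL6w.

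The levels of these genes in the other groups place the change. Vsig4 lay at 363 ± 10.4 in Sham6w, 160 ± 19.1 in DSS, 123 ± 53.6 in CBDL6w and 296 ± 45.1 in CBDL+DSS. Mrc1 lay at 319 ± 42.5, 133 ± 15.4, 171 ± 15.4 and 317 ± 14.8 in the same order, and Fkbp5 at 56.2 ± 9.91, 19.3 ± 11.2, 16.3 ± 8.22 and 68.3 ± 25. In these 3 genes the means of both groups with 1 injury were below the control mean and that of the group with both injuries was near it. Klf9 had the same order, at 59.1 ± 9.8, 20.3 ± 8.61, 29.2 ± 7.55 and 63.8 ± 17.9. Ccr2 lay at 28.5 ± 8.23, 27 ± 7.45, 128 ± 46.5 and 38.7 ± 5.29, with CBDL6w alone high among these 4. Hilpda, at 10.3 ± 5.54, 24.5 ± 8.87, 11.3 ± 2.84 and 51.8 ± 21.4, and Il15ra, at 30.2 ± 2.56, 53.3 ± 4.02, 12.6 ± 11.5 and 94.9 ± 28.2, were highest in CBDL+DSS. Ptma, at 168 ± 18, 215 ± 52.2, 248 ± 31 and 117 ± 15.2, was lowest there. Cd163, at 536 ± 50.8, 479 ± 173, 75.6 ± 56.3 and 174 ± 52.5, and Clec4f, at 453 ± 34.7, 187 ± 15.9, 112 ± 66.2 and 153 ± 23, lay well below the Sham6w mean in CBDL+DSS.

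**Figure D5:**
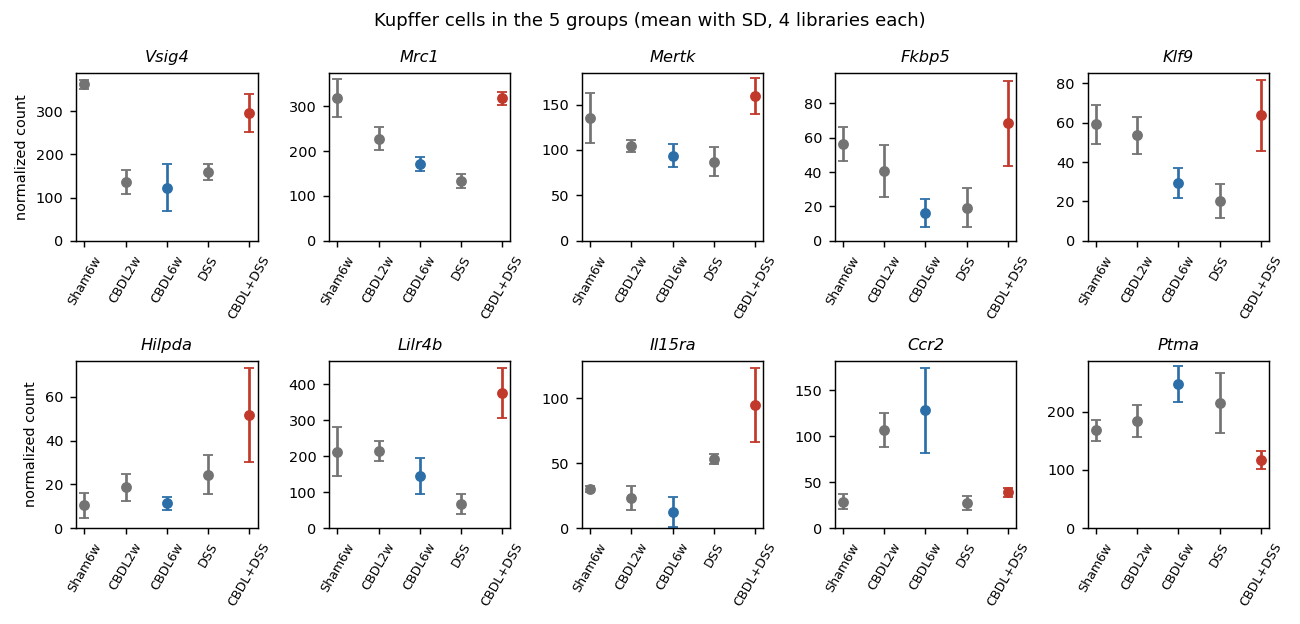
Mean normalized counts with SD of 10 genes in the 5 Kupffer cell groups, 4 libraries each, with CBDL6w in blue and CBDL+DSS in red. Vsig4, Mrc1, Fkbp5 and Klf9 are low in CBDL6w and DSS and near the Sham6w level in CBDL+DSS, and Ccr2 is high in CBDL2w and CBDL6w.

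Whether colitis acted differently with and without ligation was tested as the difference of the 2 effects, CBDL+DSS minus CBDL6w against DSS minus Sham6w, in the same fit. Of 6159 genes 231 (3.75%) had a positive and 140 (2.27%) a negative difference. After scaling to equal totals the split was 181 and 183, by edgeR 194 and 155, and after thinning 128 and 127, so the balance of signs depended on the scaling. The difference uses the same CBDL+DSS and CBDL6w libraries as the comparison above and is not independent of it. It was 2.55 ± 0.33 for Vsig4 (limma adjusted p = 1.09e-04), 2.14 ± 0.19 for Mrc1 (6.56e-07), 1.39 ± 0.25 for Mertk (0.0019), 3.76 ± 0.59 for Fkbp5 (8.0e-04), 2.67 ± 0.40 for Klf9 (5.4e-04) and 3.12 ± 0.40 for Lilr4b. It was negative for Ptma (-1.40 ± 0.24), Ccr2 (-1.56 ± 0.36) and Anp32a (-1.94 ± 0.53). Each sign held in 16 alternative fits, and each passed in all 16 except Ccr2, which passed in 15, and Anp32a, which passed in 12. For Hilpda (0.83 ± 0.52), Cxcl2 (0.96 ± 0.64), Fosb (1.28 ± 0.76) and Il15ra (2.72 ± 0.86) the difference did not pass.

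Colitis without ligation shares no library with the main comparison. In DSS against Sham6w 206 genes (3.34%) were higher and 280 (4.55%) lower. Of the 58 genes higher with colitis on top of ligation, 18 (31.0%) had a positive change there, 1 was called higher and 13 were called lower, and 48.4% of all genes tested had the same sign in both. The called ones included Mrc1 (-1.25), Vsig4 (-1.19), Fkbp5 (-1.69), Klf9 (-1.58), Lgmn (-0.76) and Pla2g7 (-1.12), which fell with colitis alone, and Hilpda (1.22), which rose. Of the 49 lower genes 24 had the same sign, 5 were called lower and 1 was called higher.

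The same contrast was made in monocyte-derived macrophages and monocytes, which share no library with the Kupffer cells. Most replicate numbers recur across the cell types, so libraries may come from the same mice. Replicate 6 of CBDL+DSS was present in Kupffer cells and monocytes but not in monocyte-derived macrophages. In monocyte-derived macrophages 240 genes (3.18%) were higher and 225 (2.98%) lower of 7555. Of the 58 genes higher in Kupffer cells 50 (86.2%) were on the same side there and 17 were called, and of the 49 lower genes 45 (91.8%) were on the same side, 20 were called and 1 was called the other way, against 58.8% of all genes with the same sign. Lgmn (1.97 ± 0.25), Mertk (2.22 ± 0.33), Rgs1 (1.62 ± 0.26), Fos (1.09 ± 0.24) and Fkbp5 (1.88 ± 0.51) rose in both cell types, and Ptma (-0.81 ± 0.17), Csnk2a1 (-1.02 ± 0.25) and Pabpc1 (-0.72 ± 0.15) fell in both. In monocytes 12 genes (0.159%) were higher and 9 (0.119%) lower. There 50 of the 58 and 44 of the 49 had the same sign, against 59.6% of all genes, and 2 and 2 were called.

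The difference of the effect between Kupffer cells and monocyte-derived macrophages passed for 16 genes in the positive (0.212%) and 18 in the negative direction (0.238%), and 9 genes passed after thinning. Apoe was not called in Kupffer cells, at 2743 ± 347 against 2843 ± 163, and lay at 2449 ± 598 against 413 ± 51.7 in monocyte-derived macrophages, a difference of -2.60 ± 0.33 (limma adjusted p = 8.96e-07) that passed in all 16 alternative fits. The tetraspanin gene Cd63 lay at 206 ± 28.3 against 194 ± 90.3 in Kupffer cells and at 357 ± 27.5 against 33.6 ± 28.7 in monocyte-derived macrophages (-3.54 ± 0.71). Trem2, a lipid receptor of scar-associated macrophages, lay at 53.1 ± 3.89 against 5.03 ± 1.76 in the latter (-4.02 ± 0.80). Both differences passed in 15 of 16 alternatives, all but the thinned reads. Ddit4 differed the other way (2.02 ± 0.46), with 10 of 16 passing. The difference between Kupffer cells and monocytes passed for 0 of 7555 genes by limma (0.0%) and for 0 by edgeR and 2 by DESeq2. Of these 7555 genes 382 had an unadjusted p under 0.05, about the share that this threshold lets through when no gene differs.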

How the data were processed

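Messenger RNA was measured in bulk libraries of 3′ tags carrying unique molecular identifiers (UMIs), per the labels' protocols. The authors deposited 1 table of signal values: gene counts divided by 1 size factor per library, for 25307 genes, the deposited normalized counts. The build GRCm38.p6 and the tools STAR 2.7.5b, RSEM 1.3.1, DESeq2, UMI-tools 1.0.1 and Trimmomatic 0.39 and 0.39-1 are given per the submitters' processing notes, and the sort gate is not given in the sources used here. With the worth of 1 read estimated per library, 100% of values came out whole within 0.01. Symbols came from GENCODE M21 of GRCm38, which matched 25272 identifiers.

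Genes with at least 10 normalized counts in at least 3 libraries were tested by limma 3.58.1 (R 4.3.3, trend and robust, two-sided) on log2(normalized count + 1). Adding 1 can understate changes of low genes. Il15ra and Dysf, each with a CBDL6w library at 0, changed more in this fit than by edgeR or DESeq2. The fit held all 20 Kupffer cell libraries, or all 58 for comparisons of cell types. The members and the gene lists were chosen with earlier results of these data known. Named genes were, among calls whose higher group averaged 20 or more and with no overlap of libraries, without predicted genes or pseudogenes, the 12 largest changes each way, together with called list members and fixed markers. Rgs1, Vcam1, Anp32b, Ncl, Pabpc1, Malat1, Ifi203, Mndal, the Mup genes, Tpm3-rs7 and the pseudogenes were named after their values were seen. Alternatives were edgeR 4.0.16 and DESeq2 1.42.0 on recovered reads, a pseudocount of 5, no filter, equal totals, 8 libraries only, single replicate numbers, a replicate block and each of the 8 libraries left out. Thinning reads to the shallowest library (228741 reads in Kupffer cells) was added after seeing the data. The limma fit was tested on simulated counts with known changes. These held no pool, batch or outlying library, so they do not bear on calls that depend on one. Some called genes are not reported here. Unique identifiers limit copies of a molecule, so totals bound counting error only.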

Additional observations from a re-analysis of the deposited data

Results flagged for a closer look

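Some libraries stood apart from the other 3 of their group, with a gap to the nearest that was large for the range (Dixon's critical value at 95%). Chance alone flags about 1 in 20 groups, and 136 gene and group pairs were looked at beside the marker shares. In CBDL+DSS, replicate 6 was high in Klf2 (171 normalized counts, the others 75.3 to 88.9) and Cd14 (54.9, the others 19.9 to 25.8) and low in Csnk2a1 (24.5, the others 39.7 to 42.4). Replicate 1+3 was high in Spp1 (18.1, the others 7.48 to 8.95). In CBDL6w, replicate 2 was low in Fosb (10.8, the others 21.1 to 23) and alone above 0 in Ly6c2 (1.79) and Il10 (0.897). Replicate 3 was low in H2-M2 (15.4, the others 48 to 50.2). Replicate 1 of CBDL6w had a hepatocyte marker share of 0.131%, the others 0.0452% to 0.054%.

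The effect of colitis differed with and without ligation in the interaction test for Vsig4 (2.55), Mrc1 (2.14), Mertk (1.39), Fkbp5 (3.76), Klf9 (2.67), Lilr4b (3.12), Ccr2 (-1.56), Ptma (-1.40) and Anp32a (-1.94). The effect of adding colitis differed between Kupffer cells and monocyte-derived macrophages for Ddit4 (2.02), Cd63 (-3.54), Trem2 (-4.02) and Apoe (-2.60).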

How the results depend on the processing

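The 107 genes called between CBDL+DSS and CBDL6w became 18 in the fit of the 8 libraries alone, 239 by DESeq2, 33 with no filter, 20 with single replicate numbers only and 28 to 108 with 1 library left out (28 without CBDL+DSS replicate 6, 50 without 4+5, 61 without 2, 68 without 1+3, and 53 and 69 without CBDL6w replicates 2 and 1). The edgeR fit called 106, of which 93 were among the 107, and thinned reads gave 86, of which 77 were. The 371 genes with a different effect of colitis with ligation became 170 with no filter, 220 with single numbers and 239 to 431 with 1 library left out. The 34 genes that differed between Kupffer cells and monocyte-derived macrophages became 73 by DESeq2, 21 with no filter, 19 with single numbers, 9 with thinned reads and 23 to 33 with 1 library left out. The 0 between Kupffer cells and monocytes became 2 by DESeq2 and 0 to 3 with 1 library left out. The cause was not tested. With the replicate number as a block 1 gene was called in the main comparison and 102 for the effect of colitis with ligation. Same-numbered Kupffer libraries did not deviate together (correlations of -0.0526 to 0.0122, and -0.0554 to 0.0604 for the other pairs). These values showed no pairing by number. They cannot exclude one, as few pairs share a number and some labels are joined. Of the named genes, no called gene reversed; the uncalled change of Apoe became 0.078 with single numbers and ran from -0.13 to 0.0039 with 1 library left out, and that of Cd63 from -0.079 to 0.43. Depth limits the genes near the filter, and missing the threshold does not show that a gene stayed the same.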
